A study of Mus musculus with 16 samples.

Results

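The genes described here are Hsd11b2 and 7 genes around it in corticosteroid signalling: the partner enzyme Hsd11b1, the receptors Nr3c1 and Nr3c2, and the response genes Fkbp5, Tsc22d3, Per1 and Zbtb16. They were taken by name, 8 of the 28971 genes in a table of whole-kidney RNA counts, and all 8 were among the 15615 genes with enough reads to be tested. The set was chosen by values of this same comparison, since the lower Hsd11b2 level in Hes1 cKO was already known. The levels of its genes in the compared groups are therefore given as a description, with no test.

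The study compared kidneys of mice carrying Pax8-rtTA, TRE-Cre and floxed Hes1 (Hes1 f/f), called Hes1 cKO, with kidneys of littermates labelled wild type, called control. Both groups drank doxycycline at 1 mg/mL in water with 5% sucrose for 1 week from 3 weeks of age. Pax8-rtTA answers to doxycycline in tubule epithelium, where TRE-Cre then recombines floxed Hes1, and cells outside that epithelium keep the gene. Its stated purpose was to find genes that differ between these kidneys. Total RNA was read as 150 bp pairs, and 3 Hes1 cKO and 4 control libraries could be assigned by their names, with numbers that only name columns.

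Aldosterone acts on principal cells of the collecting duct through the mineralocorticoid receptor, which binds the glucocorticoid corticosterone as well. The enzyme 11-beta-hydroxysteroid dehydrogenase, type 2, made from Hsd11b2, oxidises corticosterone to an inactive form inside those cells, and the type 1 enzyme from Hsd11b1 runs the reverse reaction in other cells. Both receptors bind the same palindromic DNA element, so that Fkbp5, Tsc22d3, Per1 and Zbtb16 can respond to either hormone.

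Hes1 itself checked the group names. It was at 17.2 to 19.8 CPM (reads of the gene per fixed number of reads in the scaled library) in Hes1 cKO and at 42.8 to 67.6 CPM in control, with no overlap. Kidney identity was checked on 9 proximal tubule markers, which summed to 7498 to 8234 CPM in Hes1 cKO and 8367 to 10764 CPM in control. Total counts ran from 16973931 to 20420422 per library. Hes1 cKO 3, control 3 and control 4 had 333 to 367 CPM of Xist, the RNA that coats the inactive X chromosome, and the other 4 libraries had at most 0.371 CPM. Both sexes are recorded in the labels, with 3 males and 4 females among the titled Hes1 cKO samples and 6 males and 3 females among the titled controls, but the column names do not give the titled sample, and no sex was assigned to a library. A list of 14 adrenal genes, read as markers of attached adrenal tissue, summed to 1350 CPM in Hes1 cKO 3, 1029 CPM in control 1 and 342 CPM in control 2, against 93.4 to 141 CPM in the rest. Most of the lower sums was Fdx1, at 84.7 to 111 CPM in every library. The other 13 markers summed to 1239, 925 and 240 CPM in Hes1 cKO 3, control 1 and control 2, to 56.7 CPM in Hes1 cKO 1, and to 3.81, 6.31 and 6.61 CPM in Hes1 cKO 2, control 3 and control 4. Xist and adrenal RNA therefore split the libraries in ways that cross genotype, and the members are given against both.

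Promoter windows were looked up for the members in the RefSeq table (build GRCm38.p6), which held 8 start sites of 5 genes: Fkbp5, Hsd11b1, Nr3c2, Per1 and Tsc22d3. The 250 bases before each start were searched on both strands. The full receptor element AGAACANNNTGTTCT was in none of the 8, and in 0.00913% of 32851 such windows of all genes. One arm of it, AGAACA, found in 16.1% of windows, lay in 1 Tsc22d3 window, 185 bases before the start. The E-box CACGTG, which clock and other basic helix-loop-helix factors bind, was in 6.02% of windows and lay 166 bases before a Per1 start and 169 bases before the Fkbp5 start. For Hes-family factors, the N-box CACNAG was in windows of Hsd11b1, Per1 and Tsc22d3 (36.7% of all windows) and the class C site CACGCG in another Per1 window (7.62%). The windows with the E-box and the single arm are printed because they carry the motifs of the response genes, which are in capitals (the single arm reads as its reverse complement). Bases inside an annotated exon are left out. They are Per1 at chr11:69098699-69098947, plus strand, Fkbp5 at chr17:28486150-28486399, minus strand, and Tsc22d3 at chrX:140600660-140600772, minus strand, each 5′ to 3′.
Per1: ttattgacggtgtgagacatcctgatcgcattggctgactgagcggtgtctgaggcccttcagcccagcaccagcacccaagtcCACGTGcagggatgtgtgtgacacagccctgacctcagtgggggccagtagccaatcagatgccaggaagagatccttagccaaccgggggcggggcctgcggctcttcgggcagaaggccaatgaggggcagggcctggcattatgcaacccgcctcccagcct
Fkbp5: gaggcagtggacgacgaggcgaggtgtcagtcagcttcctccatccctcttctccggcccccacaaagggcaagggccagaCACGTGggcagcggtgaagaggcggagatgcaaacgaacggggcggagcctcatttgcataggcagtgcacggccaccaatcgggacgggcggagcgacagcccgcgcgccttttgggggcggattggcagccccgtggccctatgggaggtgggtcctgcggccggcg
Tsc22d3: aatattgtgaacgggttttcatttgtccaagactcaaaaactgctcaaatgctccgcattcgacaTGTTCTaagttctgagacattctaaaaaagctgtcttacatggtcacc
A match in these letters is a description and not a bound site.

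Hsd11b2 (ENSMUSG00000031891, chr8:105518755-105523988, plus strand) was lower in every Hes1 cKO library than in every control library. It stood at 111, 92.2 and 114 CPM across Hes1 cKO 1 to 3, while control 1 to 4 had 195, 206, 278 and 241 CPM. The highest Hes1 cKO value, times 1.70, gives the lowest control value. The means were 106 ± 11.9 CPM (SD, n = 3) and 230.0 ± 37.6 CPM (SD, n = 4), so that Hes1 cKO kidneys held 46.0% of the control level, or -1.12 (SE 0.14) as a log2 fold change. In whole-kidney RNA, fewer cells of a type and less RNA per cell cannot be told apart.

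Among the 8 members, Hsd11b2 was the 1 gene called at an adjusted p under 0.05 in the fit across all genes, where 0.339% of genes were called in either direction and 0.0192% as lower. It was also the 1 member whose groups did not overlap, which 7.01% of all tested genes did in either direction and 3.29% as lower. It was not called without Hes1 cKO 1, without Hes1 cKO 2 or in the low-Xist libraries alone. Since this contrast chose the set, nothing is read from these counts. The other 7 members overlapped between the groups.

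**Figure D1:**
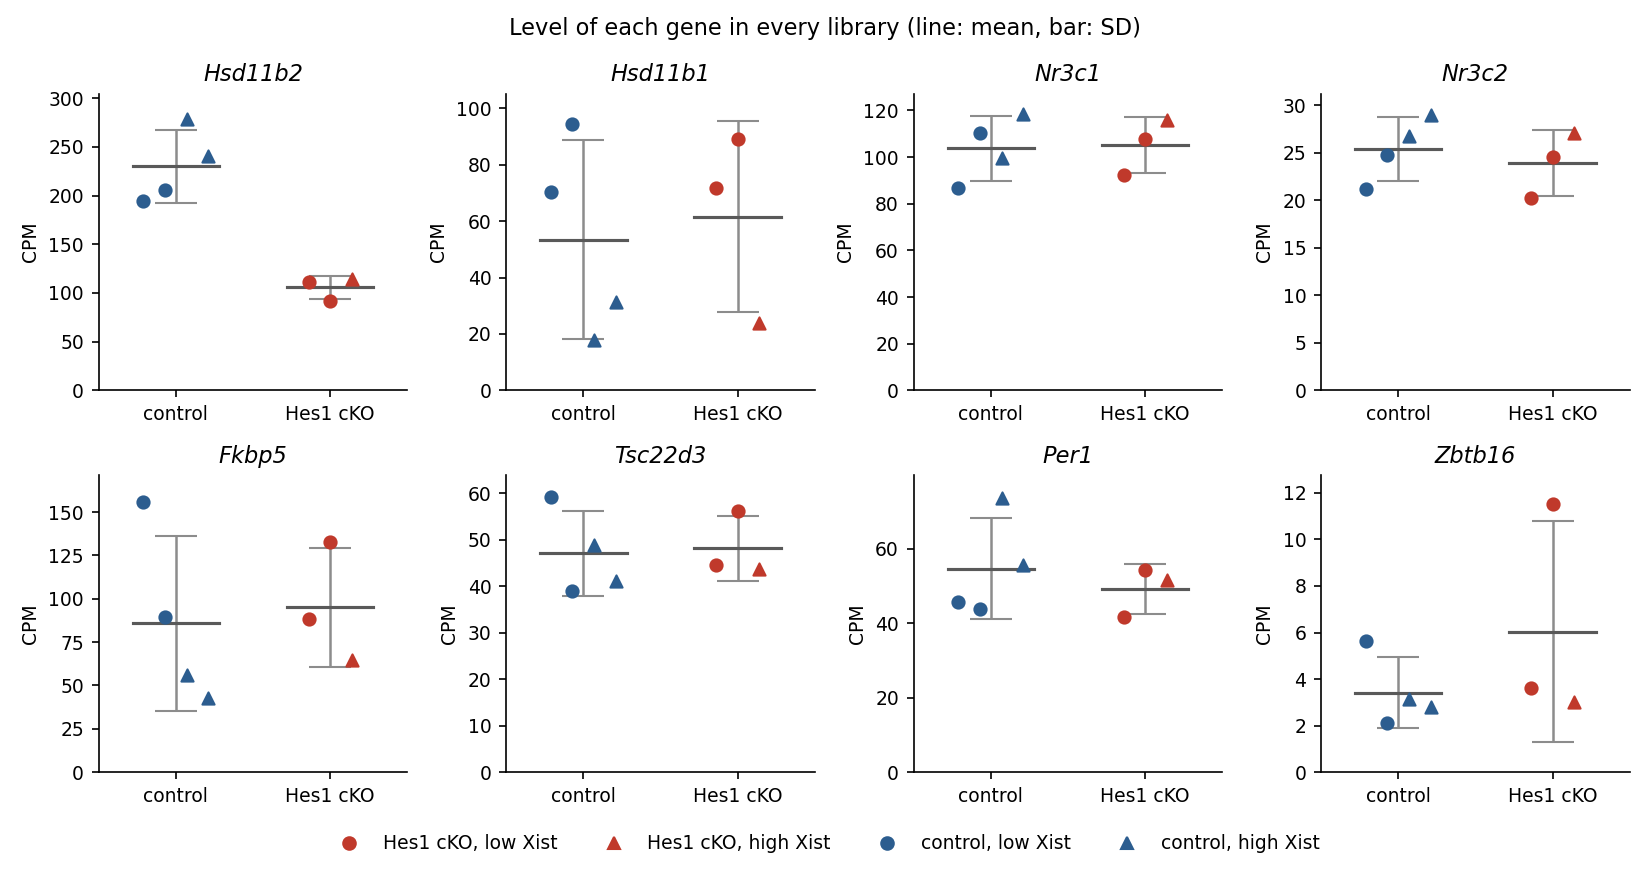
Level of each of the 8 genes in CPM (vertical axes, from 0) in the control and Hes1 cKO libraries, with group means as lines and SD as bars; triangles are libraries with high Xist and circles those with low Xist. Hsd11b2 separates the groups (at most 114 CPM against at least 195 CPM), while Hsd11b1 and Fkbp5 place every triangle below every circle.

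The Hsd11b2 difference was present on both sides of the Xist split. Among low-Xist libraries the means were 102 CPM in 2 Hes1 cKO and 200.5 CPM in 2 control libraries, a ratio of 0.507. Among high-Xist libraries the single Hes1 cKO library had 114 CPM and the 2 control libraries a mean of 260 CPM, a ratio of 0.441. Over 18 alternative fits, the log2 fold change ran from -1.35 to -0.98. On each side of the split the genotypes also differed in adrenal RNA. Among low-Xist libraries the 13 markers were at 56.7 and 3.81 CPM in Hes1 cKO against 925 and 240 CPM in control, and among high-Xist libraries at 1239 CPM against 6.31 and 6.61 CPM. Every Hes1 cKO library was below every control library for Hsd11b2, so no split of the libraries could give another direction. These values are a description, and nothing about Xist or adrenal RNA is read from them.

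Hsd11b2 was then set beside 9 other principal cell markers to place it within that cell type. Avpr2, the vasopressin receptor, was at most 0.318 CPM and was the marker not tested. Of the 8 markers tested, 6 were lower in Hes1 cKO and 2 higher, 0 were called by edgeR, and 4 had an unadjusted p under 0.05, with a median log2 fold change of -0.31 against -0.0064 for all tested genes. DESeq2, which called 0.814% of all genes, called 3 of them, Aqp2, Aqp3 and Fxyd4. Aqp2, the vasopressin-regulated water channel, averaged 541 ± 175 CPM (SD, n = 3) and, in control, 930 ± 184 CPM (SD, n = 4), with a fitted log2 difference of -0.78. Gata3 and Elf5, transcription factors of these cells, had log2 fold changes of 0.19 and 0.31.

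On the log2(CPM + 1) scale, Hsd11b2 lay above the mean of the 9 other markers by 1.79, 1.70 and 1.61 in Hes1 cKO 1, 2 and 3. The distance was 2.47, 2.56, 2.60 and 2.51 in control 1, 2, 3 and 4. It was therefore smaller in every Hes1 cKO library, at 1.70 ± 0.088 (SD, n = 3) against 2.54 ± 0.058 (SD, n = 4). The difference of -0.84 compares with -0.27 for the markers themselves. That mean holds Avpr2, near the floor, and Gata3 and Elf5, which were higher in Hes1 cKO. Fitted log2 fold changes of the tested markers ran from -0.78 (Aqp2) to 0.31 (Elf5). Without any scaling, each read of Scnn1b, a subunit of the epithelial sodium channel, was matched by 1.80 ± 0.071 reads of Hsd11b2 in Hes1 cKO, against 3.42 ± 0.142 reads in control. The ratio was lower without overlap against 6 of the 8 tested markers, the exceptions being Aqp2 and Fxyd4. Hsd11b2 alone already separated the groups, and the share of all genes with such a ratio was not computed. Nothing is therefore read from that count. These relative values share the Hsd11b2 reads that chose the gene and are a description too.

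**Figure D2:**
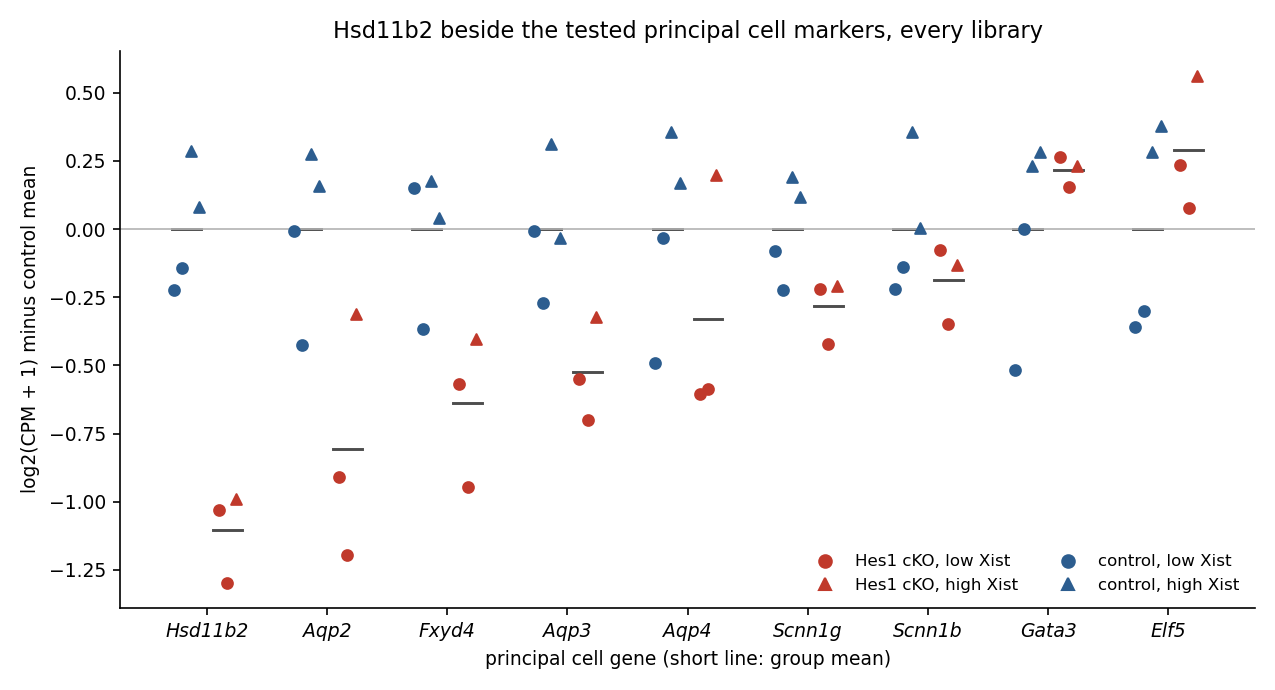
Level of Hsd11b2 and the 8 tested principal cell markers in each library, as log2(CPM + 1) minus the control mean of that gene (vertical axis); short lines are group means, and triangles are high-Xist libraries. The Hes1 cKO points of Hsd11b2 lie farther below 0 on average than those of any marker shown, and those of Gata3 and Elf5 lie above 0.

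Intercalated cells share the collecting duct with principal cells and their markers rose. Of 10 markers, 8 were called, all of them as higher, and the median log2 fold change was 1.41 (0.32% of all genes were called as higher). Their summed level was 1424 to 1543 CPM in Hes1 cKO and 522 to 681 CPM in control. Proximal tubule markers lay the other way: their summed level did not overlap between the groups and all 9 had log2 fold changes below 0, with a median of -0.21, though 0 were called by edgeR or DESeq2 and 0 had an unadjusted p under 0.05. The part of either cell type in the Hsd11b2 level was not tested.

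The genes whose library profile was most like that of Hsd11b2 were found among 11115 genes with a mean of at least 5 CPM. Likeness was the root mean square, over 7 libraries, of the difference between centred log2(CPM + 1) profiles. The nearest were Hes1 (0.238), Gatm (0.257), Scube3 (0.260), Aqp2 (0.267), Ache (0.290), Tyw3 (0.293), Fxyd4 (0.294) and Klhdc4 (0.298). A gene flat across libraries would give 0.574, and the median gene gave 0.592. Gatm, which makes the creatine precursor guanidinoacetate, was at 438 CPM on average in Hes1 cKO and 689 CPM in control. Of the 8, Hes1 was the 1 gene called by edgeR. Hsd11b2 was chosen for its group difference, so likeness to it favours genes that are lower in Hes1 cKO. Hes1 is the gene that the design deletes, and nothing further is read from this order.

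Hsd11b1 (ENSMUSG00000016194, chr1:193221634-193264075, minus strand), the opposing enzyme, did not follow genotype. It read 71.7, 89.1 and 23.8 CPM across Hes1 cKO 1 to 3, while control 1 to 4 had 70.2, 94.5, 17.8 and 31.2 CPM. The 3 libraries with high Xist were the 3 lowest, with a mean of 24.3 CPM against 81.4 CPM in the others. High-Xist and low-Xist libraries did not overlap for 11.9% of all tested genes. Within the low-Xist and the high-Xist libraries, Hes1 cKO stood at 0.977 and 0.970 of control. The high-Xist ratio sets Hes1 cKO 3 alone against control 3 and control 4, at 17.8 and 31.2 CPM. The low-Xist ratio sets Hes1 cKO 1 and Hes1 cKO 2 against control 1 and control 2. With so few libraries, equality within either set is not established.

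The pooled means of Hsd11b1, 61.5 ± 33.8 CPM (SD, n = 3) and 53.4 ± 35.3 CPM (SD, n = 4), gave a log2 fold change of 0.21 (SE 0.56). Its spread within the groups was larger than that of 99.3% of 14144 genes. Lamb3, which overlaps it on the opposite strand without sharing exon bases, was at 9.90 and 10.8 CPM in Hes1 cKO and control.

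The receptors were level between the groups within their spread. Nr3c1 (ENSMUSG00000024431, chromosome 18), the glucocorticoid receptor, was at 92.3, 108 and 116 CPM across Hes1 cKO 1 to 3, while control 1 to 4 had 86.6, 110, 99.6 and 118 CPM. The ranges lay over each other, with means of 105 ± 11.9 CPM (SD, n = 3) and 104 ± 13.8 CPM (SD, n = 4) and a log2 fold change of 0.02 (SE 0.12). Nr3c1 varied by 1.37-fold between its highest and lowest library, the least of the 8 members.

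Nr3c2 (ENSMUSG00000031618, chr8:76899442-77245012, plus strand), the mineralocorticoid receptor, was at 20.2, 24.5 and 27.1 CPM across Hes1 cKO 1 to 3, while control 1 to 4 had 21.2, 24.7, 26.8 and 29.0 CPM. High-Xist libraries lay above low-Xist libraries, the reverse of Hsd11b1. The group means were 23.9 ± 3.46 CPM (SD, n = 3) and 25.4 ± 3.34 CPM (SD, n = 4), with a log2 fold change of -0.09 (SE 0.14). Nr3c2 shares 247 exon bases with the antisense gene Gm10649, which was at 0.0682 and 0.150 CPM in Hes1 cKO and control.

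Per kilobase of exon, the mean level over all libraries was 96.1 CPM for Hsd11b2, 13.6 for Nr3c1, 13.4 for Hsd11b1, 10.9 for Tsc22d3, 9.49 for Fkbp5, 9.29 for Per1, 3.83 for Nr3c2 and 0.859 for Zbtb16. Hsd11b2 was above every other member in every library, its lowest value being 50.1 CPM per kilobase and the highest of any other member 22.2. The levels of Nr3c1, Hsd11b1, Tsc22d3, Fkbp5 and Per1 overlapped across libraries, so their order within that middle group is not resolved. Nr3c2 reached at most 4.49 CPM per kilobase, under the 4.51 of the lowest Fkbp5 library but above the lowest Hsd11b1 library (4.20). Zbtb16 reached at most 2.18 CPM per kilobase, under the lowest Nr3c2 library (3.12).

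Per kilobase, Hsd11b2 outnumbered Nr3c2, whose protein it guards, by a factor of 31.9 ± 3.45 (SD, n = 4) in control and of 15.8 ± 3.16 (SD, n = 3) in Hes1 cKO. This ratio did not overlap between the groups. Hsd11b2 alone already separated the groups and Nr3c2 was level, so the ratio repeats the difference that chose the set. The share of all genes with such a ratio was not computed, and nothing is read from it. The ratio of Hsd11b2 to Hsd11b1 overlapped, running from 2.39 to 11.1 in Hes1 cKO and from 5.04 to 36.0 in control. Nr3c1 over Nr3c2 was 3.72 ± 0.124 (SD, n = 3) against 3.44 ± 0.253 (SD, n = 4), with overlap.

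The response genes did not separate the groups. Fkbp5 (ENSMUSG00000024222, chr17:28399094-28517527, minus strand), a co-chaperone that feeds back on the glucocorticoid receptor, was at 88.1, 132 and 64.9 CPM across Hes1 cKO 1 to 3, while control 1 to 4 had 156, 89.5, 55.8 and 42.7 CPM. Both extremes were control libraries, 3.64-fold apart, and every high-Xist library lay below every low-Xist library. The means were 95.1 ± 34.3 CPM (SD, n = 3) and 85.9 ± 50.4 CPM (SD, n = 4), or 0.15 (SE 0.41) as a log2 fold change. Its spread within groups exceeded that of 98.4% of genes.

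Tsc22d3 (ENSMUSG00000031431, chrX:140539528-140600659, minus strand) encodes GILZ, a leucine zipper protein that carries anti-inflammatory actions of glucocorticoids. It was at 44.4, 56.2 and 43.7 CPM across Hes1 cKO 1 to 3, while control 1 to 4 had 59.1, 39.0, 48.8 and 41.0 CPM. The control libraries spanned all of the Hes1 cKO values. The means were 48.1 ± 7.03 CPM (SD, n = 3) and 47.0 ± 9.12 CPM (SD, n = 4), or 0.03 (SE 0.15) as a log2 fold change.

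Per1 (ENSMUSG00000020893, chr11:69095217-69109960, plus strand) is a clock repressor that aldosterone also induces in collecting duct cells. It was at 41.7, 54.3 and 51.6 CPM across Hes1 cKO 1 to 3, while control 1 to 4 had 45.8, 43.7, 73.6 and 55.6 CPM. Control 3 stood above all others. The means were 49.2 ± 6.64 CPM (SD, n = 3) and 54.7 ± 13.6 CPM (SD, n = 4), or -0.15 (SE 0.18) as a log2 fold change.

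Zbtb16 (ENSMUSG00000066687, chr9:48654297-48836222, minus strand), the transcriptional repressor PLZF, was the least expressed member, with 40 to 233 reads in a library. It was at 3.60, 11.5 and 3.00 CPM across Hes1 cKO 1 to 3, while control 1 to 4 had 5.62, 2.12, 3.13 and 2.78 CPM. Hes1 cKO 2 alone stood above the control range. The means were 6.04 ± 4.76 CPM (SD, n = 3) and 3.41 ± 1.53 CPM (SD, n = 4), and the log2 fold change of 0.83 (SE 0.49) became -0.05 without Hes1 cKO 2.

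The order of the libraries was then read for each response gene. Control 1 and Hes1 cKO 2, from opposite genotypes, were the highest pair for Fkbp5, Tsc22d3 and Zbtb16, as they were for 4.33% of all tested genes. Of the 18 further genes of glucocorticoid response, 2 had that pair on top, Klf9, a glucocorticoid-induced Kruppel-like factor, and Map3k6. Per2 was the 1 gene of 15 in the clock list that did. Klf15 had Hes1 cKO 2 and Hes1 cKO 3 on top, Cry1 had Hes1 cKO 2 and Hes1 cKO 1, and Nr1d1 had control 1 and control 4. Per1 differed from the other 3 members: control 3 and then control 4 were its highest libraries, and the same order held for Sgk1, the kinase that keeps sodium channels at the membrane, and for Dusp1, a phosphatase of stress kinases. That pair, in either order, was highest for 3 of the 18 glucocorticoid response genes, Sgk1 and Dusp1 among them. It was highest for 2 of the 15 clock genes and for 6.30% of all tested genes. Of 11 immediate early genes, which respond within minutes to many stimuli, 6 had their highest control value in control 3. For 3 it was in control 4, and for 1 each in control 1 and control 2. Hes1 cKO libraries are not in that count: Egr1 was highest in Hes1 cKO 2 (260 CPM) and Fosl2 in Hes1 cKO 3 (68.5 CPM). The share over all genes was not computed, and a cause of these orders was not tested.

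Adrenal RNA was set beside the order of the response genes. Without Fdx1, the adrenal markers summed to 925 CPM in control 1 and 3.81 CPM in Hes1 cKO 2. Cyp11b1, which makes corticosterone in the adrenal cortex, was at 5.50, 0.05 and 143 CPM across Hes1 cKO 1 to 3, while control 1 to 4 had 95.2, 24.5, 0 and 0 CPM. None of the 14 markers was called by edgeR or DESeq2 or had an unadjusted p under 0.05. Their spread within groups was wide, with Cyp11b1 at a log2 fold change of 0.72 (SE 1.77), so a difference could hardly be called. The part of adrenal RNA in the order of the response genes was not tested.

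**Figure D3:**
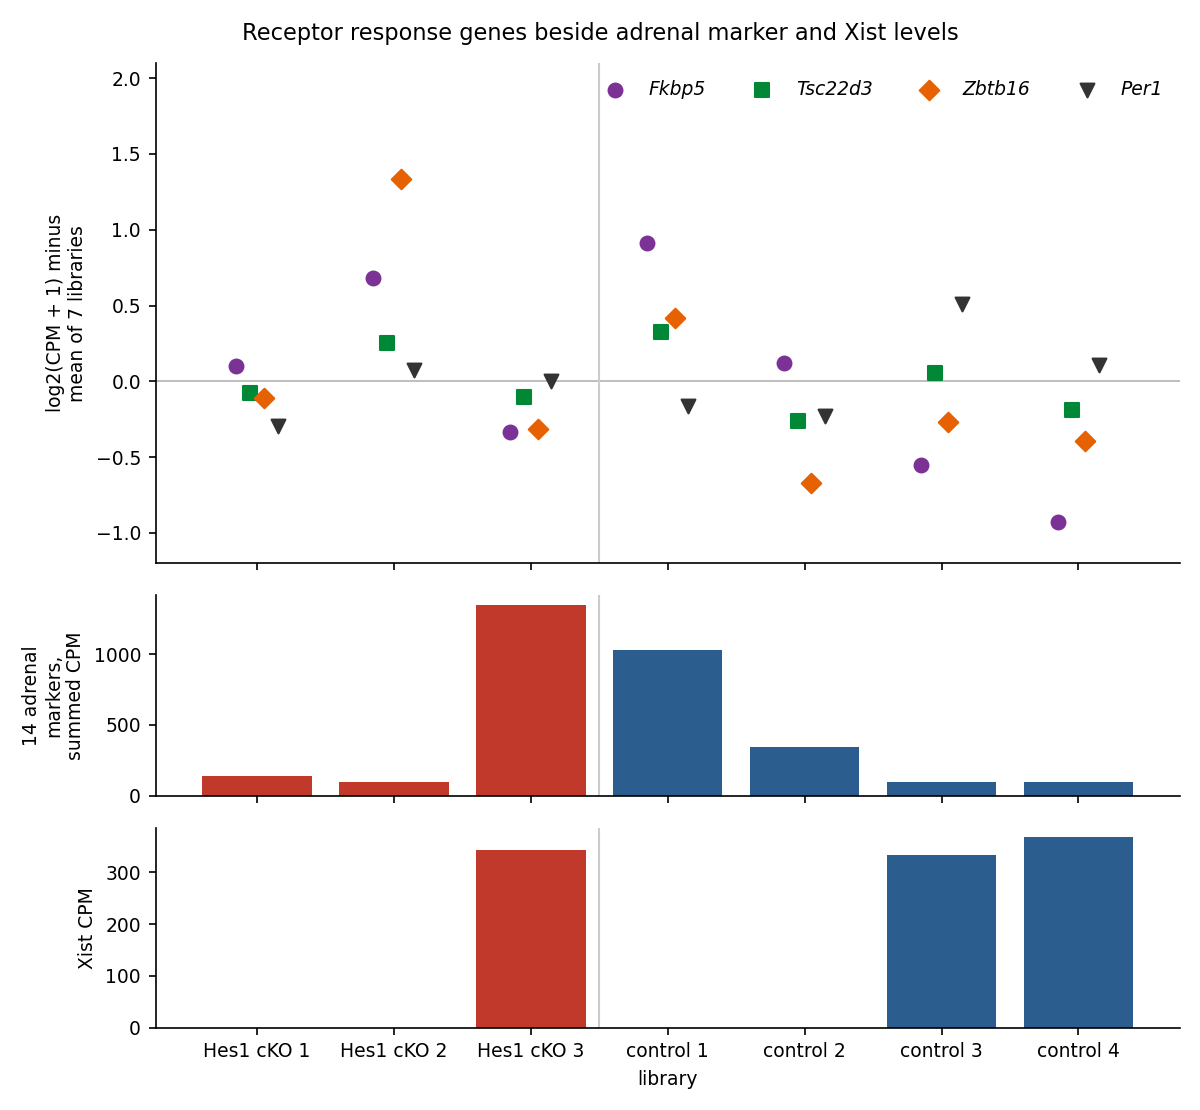
Upper panel, level of the 4 response genes in each library as log2(CPM + 1) minus the mean of 7 libraries; lower panels, summed CPM of 14 adrenal markers and CPM of Xist in the same libraries, with Hes1 cKO in red and control in blue. Fkbp5, Tsc22d3 and Zbtb16 are highest in Hes1 cKO 2 and control 1, which differ in adrenal level (94.0 and 1029 CPM, of which Fdx1 makes up 90.2 and 103 CPM), and Per1 is highest in control 3.

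When the 3 libraries with most adrenal RNA were left out, 2 low-Xist Hes1 cKO libraries faced 2 high-Xist control libraries. In that subset 3 members were called, Hsd11b2 (log2 fold change -1.35), Hsd11b1 (1.72) and Fkbp5 (1.16), among 1.41% of all genes. Genotype and the Xist level cannot be told apart there. With Xist as a covariate in all 7 libraries, which called 0.423% of all genes, the 1 called member was Hsd11b2. This contrast chose Hsd11b2, so nothing is read from that call.

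The wider pathway was read from 7 lists of 83 further genes, of which 82 were tested. One gene, Hspa1a, was called, and 13 genes (15.9%) had an unadjusted p under 0.05, against 5.95% of all tested genes. The median log2 fold change was -0.02. DESeq2 called Fxyd4 as well. Genes of a list share regulators and cell types, so these counts are not independent.

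Hspa1a, a heat-inducible chaperone of the receptor folding cycle, rose from 27.7 ± 2.89 CPM (SD, n = 4) in control to 44.1 ± 3.06 CPM (SD, n = 3) in Hes1 cKO. Its log2 fold change was 0.67 (SE 0.10), with an adjusted p of 0.0366 after Benjamini-Hochberg correction of the edgeR quasi-likelihood fit, and it was higher in 3 of 3 libraries. The near-identical Hspa1b, with which reads can be split, was at 93.7 CPM against 79.7 CPM and was not called. The call of Hspa1a was lost in 9 of 18 alternatives, 6 of them leaving out 1 library (each library but control 2), with log2 fold changes of 0.58 to 0.75.

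No other pathway gene was called by edgeR, and the log2 fold changes that follow did not pass the test. Of 6 genes of steroid access and metabolism, 5 were higher and 1 lower. They ran from Hsd17b11 (log2 fold change -0.40, SE 0.31) to the steroid exporter gene Abcb1b (0.23, SE 0.35). Neither sign was stable when 1 library was left out, where Hsd17b11 reached 0.03 and Abcb1b -0.38. H6pd, which supplies the cofactor of the Hsd11b1 reaction, was at 0.02. Of 10 chaperones, 7 were lower, with Hspa8 at -0.39, Hsp90ab1 at -0.28 and Fkbp4, the partner that competes with Fkbp5 on the receptor, at -0.11.

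All 9 receptor coregulators had log2 fold changes above 0, with a median of 0.14, and the corepressor Ncor1 was at 0.08. Among 14 genes of mineralocorticoid response, 11 were lower and 3 higher, with a median of -0.15. Of all 15615 tested genes, 8051 were lower and 7564 higher. Scnn1b, Scnn1g and Fxyd4, all lower, are also principal cell markers, so their values count in both lists. Others of the lower genes are also in the marker lists of other tubule segments. Receptor activity and cell type cannot be told apart in this count. Nedd4l, the ligase that removes sodium channels, was at 0.23, and Fxyd4, a sodium pump subunit, at -0.67. The channel subunits were at 0.21 (Scnn1a), -0.20 (Scnn1b) and -0.30 (Scnn1g), and Sgk1 was at -0.34 (SE 0.22).

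Of 18 tested genes of glucocorticoid response, 11 were higher and 7 lower, with a median of 0.09. They ran from Ddit4 (-0.56), an inhibitor of mTORC1, to the cell cycle inhibitor Cdkn1a (0.62), and held Dusp1 at -0.41 and Klf9 at 0.01. Of 15 clock genes, 7 were higher and 8 lower (median -0.01), from Npas2 (-0.50) to Cry1 (0.57), with Nr1d1 at -0.50, Arntl at -0.17, Dbp at -0.09 and Per2 at 0.29. Of 11 immediate early genes, 9 were lower (median -0.13), from Atf3 (-0.38) to Egr1 (0.41).

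**Figure D4:**
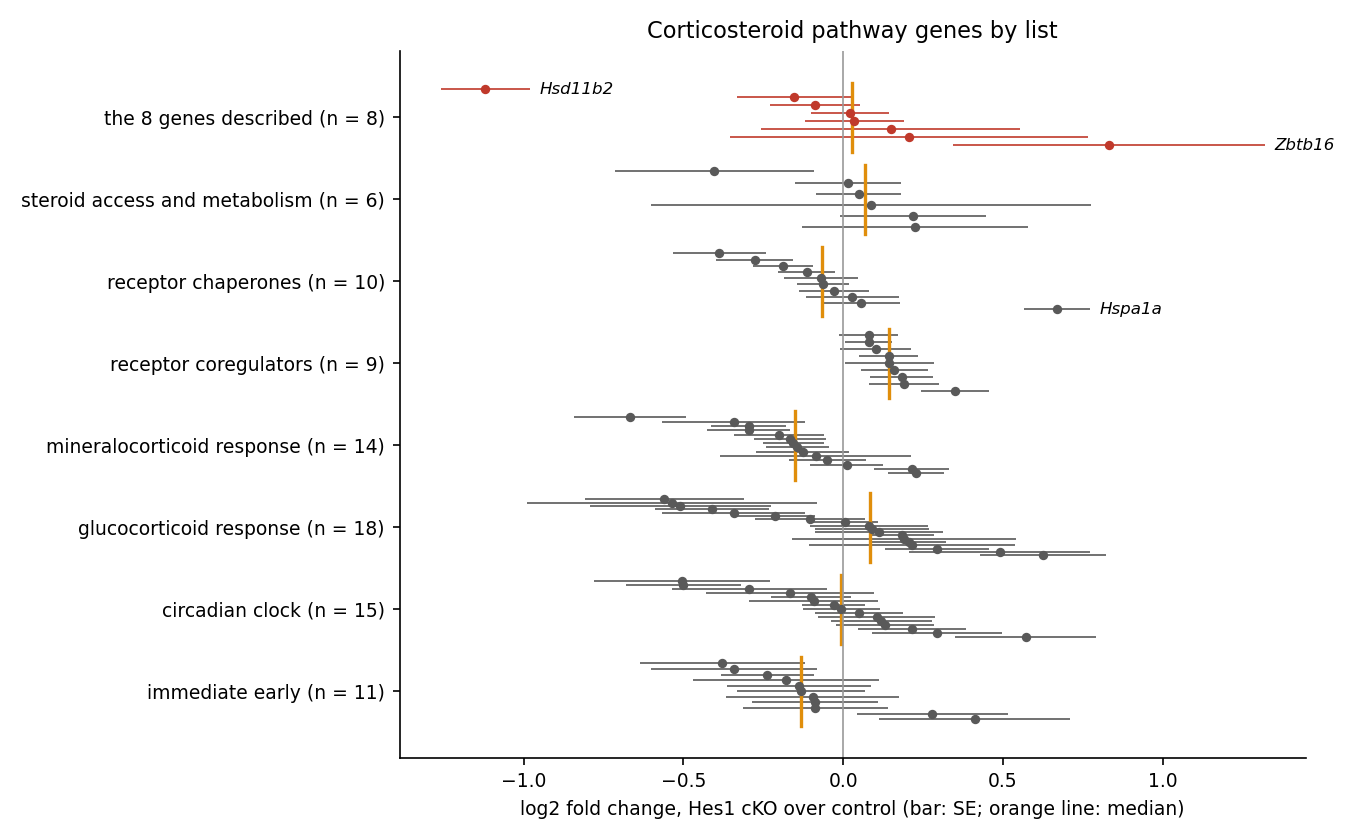
Log2 fold change of Hes1 cKO over control (horizontal axis) for each tested gene of the members and of the 7 pathway lists (rows), with bars for SE and an orange line at the median of each row. Hsd11b2 at -1.12 lies to the left of all other genes shown, Hspa1a at 0.67 is the called pathway gene, and the list medians lie between -0.15 and 0.14.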

How the data were processed

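Whole-kidney RNA of mice was analysed from a deposited table of whole-number read counts per gene, not normalized by the authors. Per the submitters' processing notes, FastQC, STAR and DESeq2 were used with builds mm10 and GRCm38; counting program, strand and annotation were not given in the sources used here. Columns named as mutant (3) or wild type (4) were used, and 9 columns of per-sample values with no genotype in their names were not. The titles name 7 Hes1 cKO and 9 control samples, the design text the reverse; titles were followed. Whether libraries are separate animals is not stated for each. The p-values set the group difference against the spread between libraries of a group, which may not be a spread between animals.

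Within a group, library pairs differed by a chi-square of 11.8 to 41.0 times its degrees of freedom, and none was merged. Genes were filtered by filterByExpr (minimum count 10), scaled by TMM and fitted with edgeR 4.0.16 (R 4.3.3), quasi-likelihood test, Benjamini-Hochberg adjustment over all tested genes, called at an adjusted p under 0.05. SE was derived from the F statistic. CPM used TMM library sizes, and the pseudocount on the log2 scale was 1. Exon lengths and positions came from GENCODE release M21 (GRCm38). DESeq2 1.42.0, limma-voom 3.58.1, other scalings and filters, leaving out each library, and Xist or adrenal covariates were alternatives; the low-Xist, high-Xist and low-adrenal subsets were chosen after seeing the data. The members, lists and tests were chosen with earlier results of these data known.

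The genes named are all members, Hes1, Xist, a fixed set of pathway genes whatever their values, every called pathway gene, the extremes of each pathway list at a mean CPM of at least 1, and the 8 genes most like Hsd11b2. A gene that this rule names is not reported here. Avpr2, Aqp3, Fdx1, Map3k6, Klf15, Gata3, Elf5, Gm10649, Lamb3, Hspa1b, Bcl6 and Fosl2 were named after their values were seen. Marker lists of other cell types had no gene called by edgeR or DESeq2 (3 of 35 tested genes had an unadjusted p under 0.05): distal convoluted tubule (6 tested, median log2 fold change -0.18), thick ascending limb (6, -0.11), proximal tubule (9, -0.21), endothelium (5, -0.10), stroma (5, 0.01) and immune cells (4, -0.29).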

Additional observations from a re-analysis of the deposited data

How the results depend on the processing

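The count of called genes, 53, was 127 with DESeq2 (95 higher) and 102 without the count filter (78 higher), and 25 to 47 when 1 library was left out. It was 23 in the low-Xist libraries and 220 in the libraries with little adrenal RNA. The count of called members, 1, was 0 to 1 when 1 library was left out (0 without Hes1 cKO 1 or Hes1 cKO 2), 0 in the low-Xist libraries and 3 with little adrenal RNA. The count of called pathway genes, 1, was 2 with DESeq2, 0 with the adrenal covariate, 0 to 1 when 1 library was left out, 0 in the low-Xist libraries and 4 with little adrenal RNA (Bcl6, Fxyd4, Hspa1a and Sgk1, the last at a log2 fold change of -0.84). In the high-Xist libraries it was 1, but the gene was Fosl2. The subsets hold fewer samples; other causes were not tested. Hsd11b2 kept its sign in 18 of 18 alternatives. Its groups did not overlap, so leaving out libraries could not change that sign. The level of Hsd11b2 relative to other principal cell markers, -0.84, ran from -0.95 in the high-Xist libraries to -0.77 in the low-Xist libraries. The likeness list shared 8 and 7 of its 8 genes with that from total counts and that from a pseudocount of 0.5. With 40 to 233 reads, depth limits Zbtb16 most. The high-Xist subset holds 1 Hes1 cKO library, which is assumed to vary like the control libraries. No paired analysis was possible because the columns are numbered in 1 run, so that no number is shared between the groups, and they are not tied to the numbered titles.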
